A study of Homo sapiens with 18 samples.

Results

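The core histone cluster genes encode the H2A, H2B, H3 and H4 proteins around which DNA is wrapped in the nucleosome. They were taken here as every gene of the count tables whose symbol is H2AC, H2BC, H3C or H4C followed by a number, and 59 of the 58825 genes in the tables met that rule. Of these, 15 encode H2A, 18 encode H2B, 11 encode H3 and 15 encode H4, and 47 lie on chromosome 6, 11 on chromosome 1 and 1 on chromosome 12. GENCODE 44 holds 63 genes with such a symbol, and the other 4 (H2AC18, H2AC19, H3C2 and H3C3) had no matching identifier and were not analysed here. Each identifier below is written as the tables give it, and positions are those of GENCODE 44 on GRCh38.

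The libraries came from OVCAR-3, an established human line of high-grade serous ovarian carcinoma, grown as 1 line with no genetic change between groups. Cells in stripped medium received the vehicle DMSO, 1 µM i-BET858 or 1 µM i-BET151 for 4 or 24 h, with 3 libraries in each of the 6 groups. Both compounds inhibit the BET proteins, which bind acetylated histone tails and help to recruit the transcription machinery. RNA was enriched for poly-A tails before sequencing, and reads were counted per gene.

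Most replication-dependent histone mRNAs are unlike all other mRNAs of the animal cell. They are made mainly in S phase from intronless genes, and they end in a short stem-loop with no poly-A tail: stem-loop binding protein (SLBP) holds the loop, U7 snRNP directs the cut after it, and the mRNA is destroyed when DNA synthesis stops. Some of the same genes can also give a longer transcript with a poly-A tail from a site further downstream, which is found in differentiated or arrested cells. Poly-A selection retains the second kind and largely discards the first, so the levels below describe what was captured with a tail, and tailed and total histone mRNA cannot be told apart in these libraries.

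The stem-loop is the sequence that most members share, so its forms are shown first. The stem-loop letters (GGC, any base, CTTTT, any base, AG, any base, GCC), searched on the gene's own strand from the stop codon to 50 bases past the annotated end, were present in 55 of the 59 genes. They began 22 to 62 bases after the stop codon, with a median of 35, and were not present in this window of H2AC15, H2BC10, H3C6 or H4C13. In the sequences below the 16 letters of the stem-loop are in capitals and the 5 bases on either side are in lower case, all read 5′ to 3′ from GRCh38.
H2AC6 (chr6:26124664-26124689, plus strand): ccaaaGGCTCTTTTCAGAGCCcccct
H2BC4 (chr6:26123467-26123492, minus strand): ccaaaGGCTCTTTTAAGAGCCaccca
H4C8 (chr6:26285126-26285151, minus strand): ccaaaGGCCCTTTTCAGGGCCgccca
H4C9 (chr6:27139649-27139674, plus strand): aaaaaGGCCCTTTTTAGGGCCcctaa
H2AC11 (chr6:27133510-27133535, plus strand): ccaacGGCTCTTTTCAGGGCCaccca
H2AC20 (chr1:149887386-149887411, plus strand): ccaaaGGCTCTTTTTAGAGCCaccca
The form of H2AC6 was carried by 32 members of the H2A, H2B and H3 types, and that of H2BC4 by 7 of those types, H3C8, H2BC5, H2BC12 and H2AC21 among them. The forms of H4C8 and H4C9 were carried by 10 and 4 members, all of the H4 type, and those of H2AC11 and H2AC20 by these genes alone.

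The members also share how they are laid out. In 12 pairs, an H2A and an H2B gene pointed away from each other with no more than 1000 bases between their starts. The stretches between 3 such pairs are shown because both partners were measured and are described below; they are written on the plus strand, and capitals mark CCAAT, the octamer ATTTGCAT and TATAAA on either strand.
H2BC4 and H2AC6 (chr6:26123927-26124144, 218 bases): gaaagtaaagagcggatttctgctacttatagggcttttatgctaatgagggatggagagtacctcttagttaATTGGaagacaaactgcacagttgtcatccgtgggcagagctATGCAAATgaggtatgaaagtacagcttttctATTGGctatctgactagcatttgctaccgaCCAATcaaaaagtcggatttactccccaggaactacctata
H2BC11 and H2AC11 (chr6:27132796-27133042, 247 bases): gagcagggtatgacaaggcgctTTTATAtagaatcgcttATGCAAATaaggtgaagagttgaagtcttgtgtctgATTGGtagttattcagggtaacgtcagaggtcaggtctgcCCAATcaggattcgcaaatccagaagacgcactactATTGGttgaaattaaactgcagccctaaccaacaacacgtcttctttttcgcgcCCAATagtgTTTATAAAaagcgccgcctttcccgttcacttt
H2AC25 and H2BC26 (chr1:228457874-228458102, 229 bases): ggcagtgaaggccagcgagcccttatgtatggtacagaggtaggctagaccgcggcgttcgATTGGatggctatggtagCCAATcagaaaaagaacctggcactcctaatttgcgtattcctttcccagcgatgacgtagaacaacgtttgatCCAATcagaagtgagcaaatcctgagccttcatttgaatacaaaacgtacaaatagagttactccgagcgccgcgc
An H4 and an H3 promoter are set beside them, as the 120 bases before the RefSeq start (GRCh38.p14), on the gene's strand with the same capitals.
H4C8 (chr6:26285535-26285654, minus strand): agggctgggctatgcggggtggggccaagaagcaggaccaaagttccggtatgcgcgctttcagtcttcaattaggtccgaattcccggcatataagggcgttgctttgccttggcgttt
H3C8 (chr6:26271414-26271533, minus strand): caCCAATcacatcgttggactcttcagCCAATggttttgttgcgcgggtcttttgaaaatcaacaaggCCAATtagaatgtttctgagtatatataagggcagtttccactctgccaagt
RefSeq promoters, from 250 bases before to 50 bases after the start, were matched for 54 members. CCAAT stood on either strand in 14 of 14 H2A, 18 of 18 H2B and 9 of 9 H3 promoters but in 3 of 13 H4 promoters, against 34.6% of all 35116 promoters. ATTTGCAT, the octamer known to bind OCT1, stood in 11 of 14 H2A and 14 of 18 H2B promoters, in 1 of 9 H3 and in 0 of 13 H4 promoters, against 1.8% of all. TATAAA stood in 36 of 54, against 11.5% of all. These matches are a description of the letters in the window.

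The libraries held 27323969 to 46299994 counts each, and 3 counts, taken as the floor, correspond to 0.0648 to 0.11 CPM (counts per 1000000 library counts, scaled by TMM in the values below). Counts in the members made up 0.0382 to 0.0635% of a library in DMSO at 4 h and 0.194 to 0.223% in i-BET858 at 24 h. The libraries of replicate 3 held fewer genes with a count (17817 to 20642) than those of replicates 1 and 2 (23674 to 24947), in all 6 groups. Results are therefore also given for replicates 1 and 2 alone. All 8 ovarian serous markers were present in every library (PAX8 387 to 612 CPM, WT1 102 to 180.3 CPM), but the keratins among them were not stable. KRT18 was called lower at 24 h with i-BET858 (-1.36 ± 0.09) and i-BET151 (-1.03 ± 0.09), and at a lesser size KRT7 was at -0.81 ± 0.14 and -0.67 ± 0.14 and KRT8 at -0.49 ± 0.08 and -0.52 ± 0.08 (adjusted p between 8.81e-04 and 0.00376). The summed level of the 8 was 8380 to 9894 CPM in DMSO, 6208 to 6748 CPM in i-BET858 and 6312 to 6925 CPM in i-BET151 at 24 h, and 8263 to 9745, 11027 to 11675 and 9342 to 9889 CPM at 4 h, and its part in the results was not tested. Of 6 markers of other cell types, PTPRC reached at most 0.555 CPM, PECAM1 0.871 CPM and PDGFRB 0.828 CPM, and CD3E stayed below all of these. COL1A1, a fibroblast collagen, lay between 21 and 47 CPM. Of the 6, 4 were tested at 4 h and 3 at 24 h. None of these was called higher with either compound, and 1, COL1A2, was called lower with i-BET858 at 24 h.

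The summed level of the members was higher in every library treated with either compound than in all DMSO libraries of its time. The sum over 59 genes was 493 ± 123 CPM (mean ± SD, n = 3) in DMSO at 4 h, 1469 ± 341 CPM in i-BET858 and 1130 ± 225 CPM in i-BET151, or 2.98 and 2.29 times DMSO. At 24 h it was 508 ± 19.3 CPM in DMSO, 2174 ± 93.6 CPM in i-BET858 and 1703 ± 266 CPM in i-BET151, or 4.28 and 3.36 times DMSO. The ratios at 24 h were 4.45 and 3.71 in replicates 1 and 2 and 3.97 and 2.68 in replicate 3. These sums carry no test, and the single genes do.

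A gene was called when edgeR's quasi-likelihood test gave an adjusted p under 0.05 over all genes tested and a change of at least 2-fold. Of 42 members tested at 4 h, 31 were called higher with i-BET858 and 24 with i-BET151, where 7.08% and 4.12% of all genes tested were. Of 45 tested at 24 h, i-BET858 raised 35 and i-BET151 raised 28, beside 7.65% and 5.59% of all genes. None was called lower in these 4 comparisons, where 14.1%, 7.10%, 18.8% and 13.7% of all genes were called in either direction (i-BET858 and i-BET151 at 4 h, then at 24 h), and none fell at an unadjusted p under 0.05 or by DESeq2. The median log2 fold change of the members was 1.89 and 1.42 at 4 h and 2.25 and 1.87 at 24 h for i-BET858 and i-BET151, against medians between -0.01 and 0.02 over all genes tested. With replicates 1 and 2 alone, 36, 28, 38 and 36 members of 43, 43, 44 and 44 tested were called higher, in the order i-BET858 and i-BET151 at 4 h, then at 24 h. How many of all genes were called in those fits was not counted, so the larger counts are not read as a stronger result.

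The count with i-BET151 at 4 h was the least stable. It was 11 without replicate 1 of i-BET151 and 13 without replicate 3 of DMSO, and the other 7 libraries left out in turn moved it by no more than 1.5 times. The replicates are described in the study as biological, and the labels do not say whether they came from separate cultures, so p-values measure the spread between these libraries.

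Some members were tested only because their treated libraries passed the filter on low counts, which favours members that were higher there. Leaving them aside, 28 members reached the filter in DMSO alone at each time. Of those 28, 25 and 20 were called higher at 4 h and 24 and 23 at 24 h with i-BET858 and i-BET151, where 6.29%, 3.73%, 7.21% and 5.34% of all genes at that DMSO level were. A further 14 members at 4 h and 17 at 24 h were tested only through their treated libraries, and of these 6 and 4 were called higher at 4 h and 11 and 5 at 24 h with i-BET858 and i-BET151. H2AC1, H2AC15, H3C4 and H4C13 had no count in any of the 18 libraries, and 9 others had too few to be tested against DMSO at either time; 1 of these, H4C1, entered the fit of all 18 libraries used below. Of the 46 members tested against DMSO at least once, 23 were called higher in all 4 comparisons and 10 in none. Among the 27 that reached the filter in DMSO alone at both times, 20 were called in all 4 and 2 in none. The shares of all genes with these patterns were not counted.

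**Figure D1:**
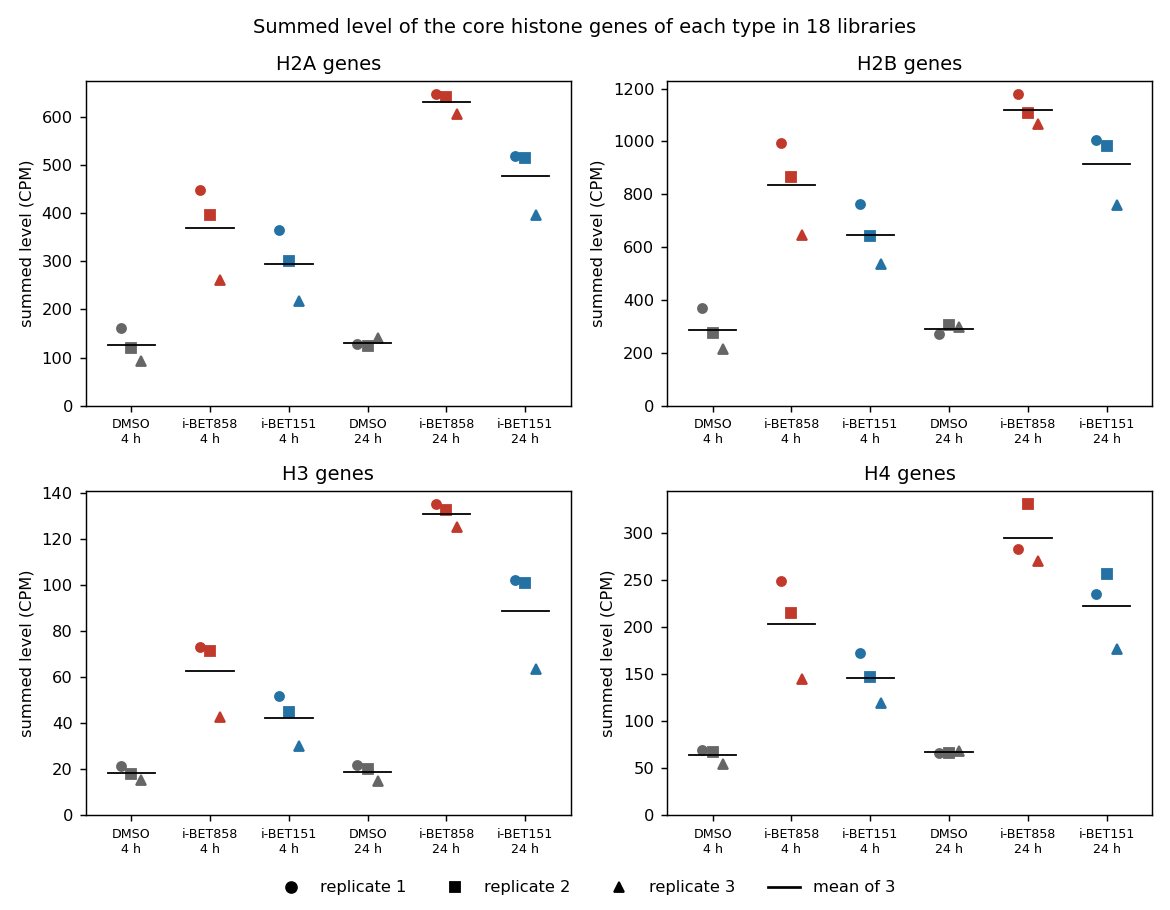
Summed level (CPM, linear axis from 0) of the H2A, H2B, H3 and H4 genes in each of the 18 libraries, with a marker shape for each replicate and a line at the mean of 3. In every panel the treated libraries lie above all DMSO libraries of the same time, and the i-BET858 mean at 24 h is the highest.

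All 4 histone types were higher in the treated libraries, from unequal starting levels. H2B genes gave the largest share of the members' summed CPM, 58% in DMSO at 4 h, followed by H2A with 25.4%, H4 with 12.9% and H3 with 3.7%. In i-BET858 at 24 h these shares were 51.4%, 29%, 13.6% and 6.02%. Each share was taken from the mean CPM of the 3 libraries of a group, not divided by exon length, and the shares were not tested. H2AC18, H2AC19, H3C2 and H3C3, which were not analysed, are missing from the H2A and H3 shares.

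The H2A sum was 162, 119.8 and 93.9 CPM in the DMSO libraries of replicates 1, 2 and 3 at 4 h, 448, 396 and 260.4 CPM in i-BET858 and 365, 301 and 217 CPM in i-BET151. At 24 h it was 128, 124 and 140.1 CPM in DMSO, 646, 641 and 606 CPM in i-BET858 and 518, 513 and 396 CPM in i-BET151. Treated and DMSO libraries did not overlap at either time, and the ratios of means to DMSO were 2.94 and 2.35 at 4 h and 4.84 and 3.65 at 24 h. Of 10 H2A genes tested, 6 were called higher with i-BET858 at both times, and 5 and then 6 with i-BET151. Of the 6 that reached the filter in DMSO alone, 5 were called with i-BET858 at each time, and 4 and 5 with i-BET151.

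The H2B sum was 369.9, 274 and 213 CPM in DMSO at 4 h, 995, 864 and 648 CPM in i-BET858 and 764, 642 and 537 CPM in i-BET151. After 24 h it was 269.9, 306 and 298 CPM, 1180, 1107 and 1066 CPM and 1007, 981 and 760.3 CPM in the same order. Again no treated library fell to the DMSO range, with ratios of 2.92, 2.27, 3.84 and 3.15. With i-BET858, 12 of 14 H2B genes tested at 4 h and 12 of 15 tested at 24 h were called higher, and with i-BET151 10 and 11 were. Of those that reached the filter in DMSO alone, 12 of 13 and 11 of 12 were called with i-BET858, and 10 and 11 for the other compound.

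The H3 sum was the lowest and had the largest ratio at 24 h. It was 21.3, 18.1 and 15.3 CPM in DMSO, 73.3, 71.6 and 42.7 CPM in i-BET858 and 51.8, 44.7 and 29.99 CPM in i-BET151 at 4 h, and 21.8, 20.03 and 14.96 CPM, 135, 133 and 125 CPM and 102, 101 and 63.4 CPM at 24 h. The ratios were 3.43, 2.31, 6.92 and 4.7, and the difference between types was not tested. Called higher with i-BET858 were 5 of 8 H3 genes tested at 4 h and 7 of 9 at 24 h, and with i-BET151 3 and 4. Only 3 H3 genes reached the filter in DMSO alone, and 2 of these were called in each of the 4 comparisons; the others were tested through their treated libraries.

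The H4 sum was 69.1, 67.01 and 55.05 CPM in DMSO, 248.6, 215 and 145 CPM in i-BET858 and 172, 146 and 119 CPM in i-BET151 at 4 h, and 66.3, 66.2 and 68.8 CPM, 283, 331 and 270.4 CPM and 235, 256.5 and 176 CPM at 24 h. All treated libraries lay above the DMSO libraries, with ratios of 3.18, 2.29, 4.4 and 3.32. With i-BET858, 8 of 10 H4 genes tested at 4 h and 10 of 11 at 24 h were called higher, and with i-BET151 6 and 7. Of the 6 and 7 that reached the filter in DMSO alone, all 6 and then 6 were called with i-BET858, and 4 and 5 for the other compound.

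**Figure D2:**
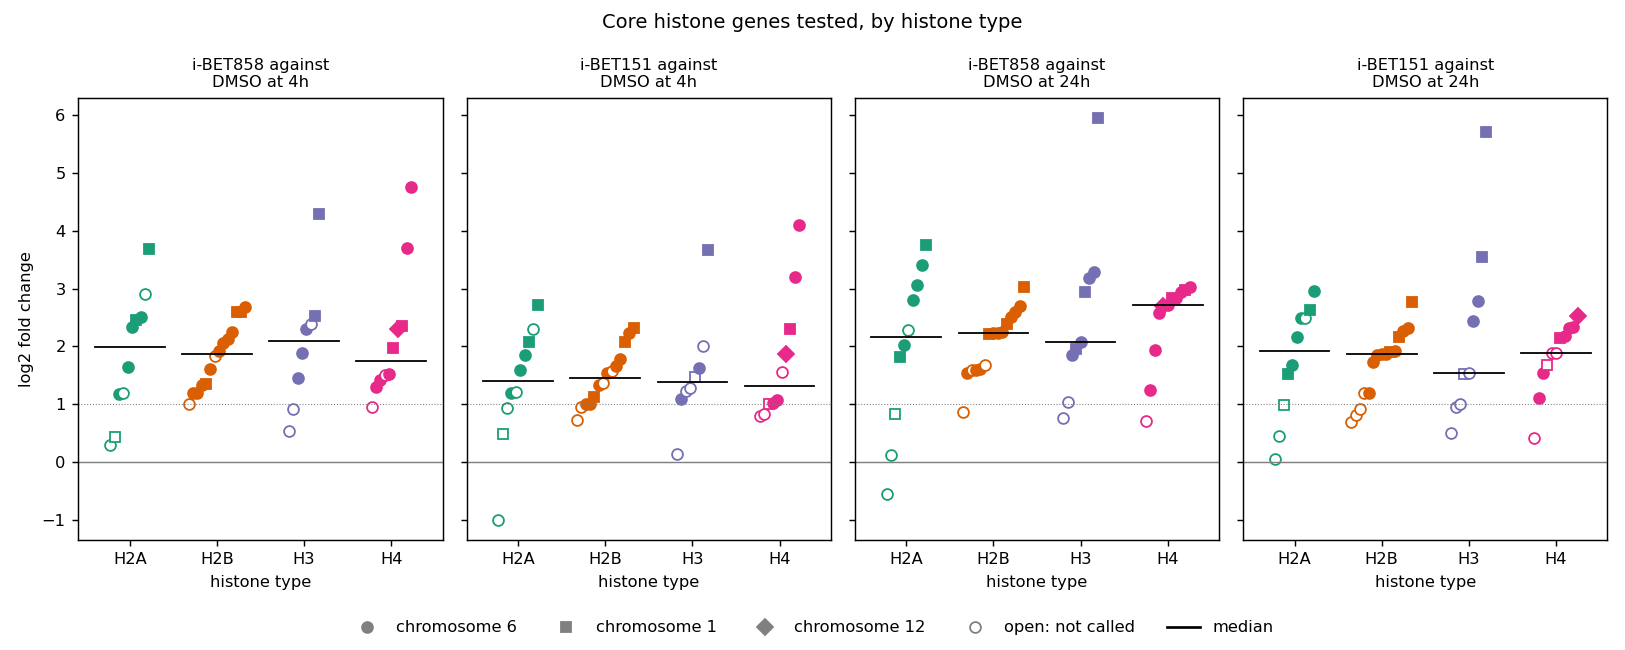
Log2 fold change of every member tested in each comparison with DMSO, by histone type, with marker shape for the chromosome, filled markers for genes called higher and a line at the median of the type. The type medians lie between 1.31 and 2.72, and the few values below 0 are open.

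The members on chromosomes 6 and 1 were both higher in treated libraries. The chromosome 6 sum went from 494, 361 and 298 CPM in the DMSO libraries to means of 1121 ± 247 CPM in i-BET858 and 851 ± 151 CPM in i-BET151 at 4 h, and from 413 ± 35.3 CPM to 1727 ± 47.1 CPM and 1309 ± 172 CPM at 24 h. With i-BET858, 21 of 31 of its members tested at 4 h and 24 of 33 at 24 h were called higher; with i-BET151, 16 and 19 were. The chromosome 1 sum went from 107 ± 26.5 CPM to 343 ± 100.3 CPM and 275 ± 75.9 CPM at 4 h, and from 93.99 ± 17.9 CPM to 442 ± 55.3 CPM and 389.9 ± 96.4 CPM at 24 h. Of its members tested, 9 of 10 and 10 of 11 were called higher with i-BET858, and i-BET151 raised 7 and 8. The ratios to DMSO were 2.91, 2.21, 4.18 and 3.17 on chromosome 6 and 3.2, 2.56, 4.71 and 4.15 on chromosome 1, and the difference between the chromosomes was not tested. Of the 21 chromosome 6 members that reached the filter in DMSO alone, 19 and 18 were called higher with i-BET858 at 4 and 24 h, and 15 and 18 with i-BET151. Of the 6 chromosome 1 members that reached the filter in DMSO alone, 5 were called higher with i-BET858 at each time and 4 with i-BET151 at each time.

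Chromosome 1 holds histone genes at 2 distant places, a group of 9 members that includes H2BC18, H2BC21 and H3C15, and the pair of H2AC25 and H2BC26. The larger group summed to 91.6 ± 22.3 CPM in DMSO, 257 ± 67.8 CPM in i-BET858 and 208 ± 56.6 CPM in i-BET151 at 4 h, and to 76.8 ± 19.2 CPM, 376 ± 49.9 CPM and 336 ± 86.3 CPM at 24 h. Its ratios rose from 2.8 and 2.27 at 4 h to 4.89 and 4.37 at 24 h, while those of the pair were 5.5 and 4.27 at 4 h and 3.87 and 3.14 at 24 h. Most of the pair's sum came from H2AC25, with 79.9 of 86.3 CPM in i-BET858 at 4 h and 58.8 of 66.55 CPM at 24 h. Its partner H2BC26 went the other way, with log2 fold changes of 2.60 and 2.32 at 4 h and 3.02 and 2.76 at 24 h. In the larger group H2BC21 alone held 318 of the 376 CPM in i-BET858 at 24 h. The sums of the 2 places thus mainly follow 1 gene each, and they were not tested.

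A level compared between genes needs their lengths, so levels were also divided by the length of the gene's exons in GENCODE 44. In DMSO at 24 h H2BC12 was highest with 217 ± 73.5 CPM per kb, then H4C9 with 92.02 ± 11.9, H2AC6 with 54.7 ± 5.53, H2BC8 with 47.1 ± 6.29 and H2BC5 with 33.7 ± 5.78 CPM per kb. In i-BET858 at 24 h H2BC12 was at 408 ± 86.7 CPM per kb, and H2BC8 (229.9 ± 62.99), H2AC6 (229 ± 13.6), H4C9 (225 ± 16.2) and H2AC11 (225 ± 11.6 CPM per kb) did not differ beyond their spread. Annotated exon lengths run from 386 to 5002 bases and set these values, since a read on a short transcript counts for more.

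**Figure D3:**
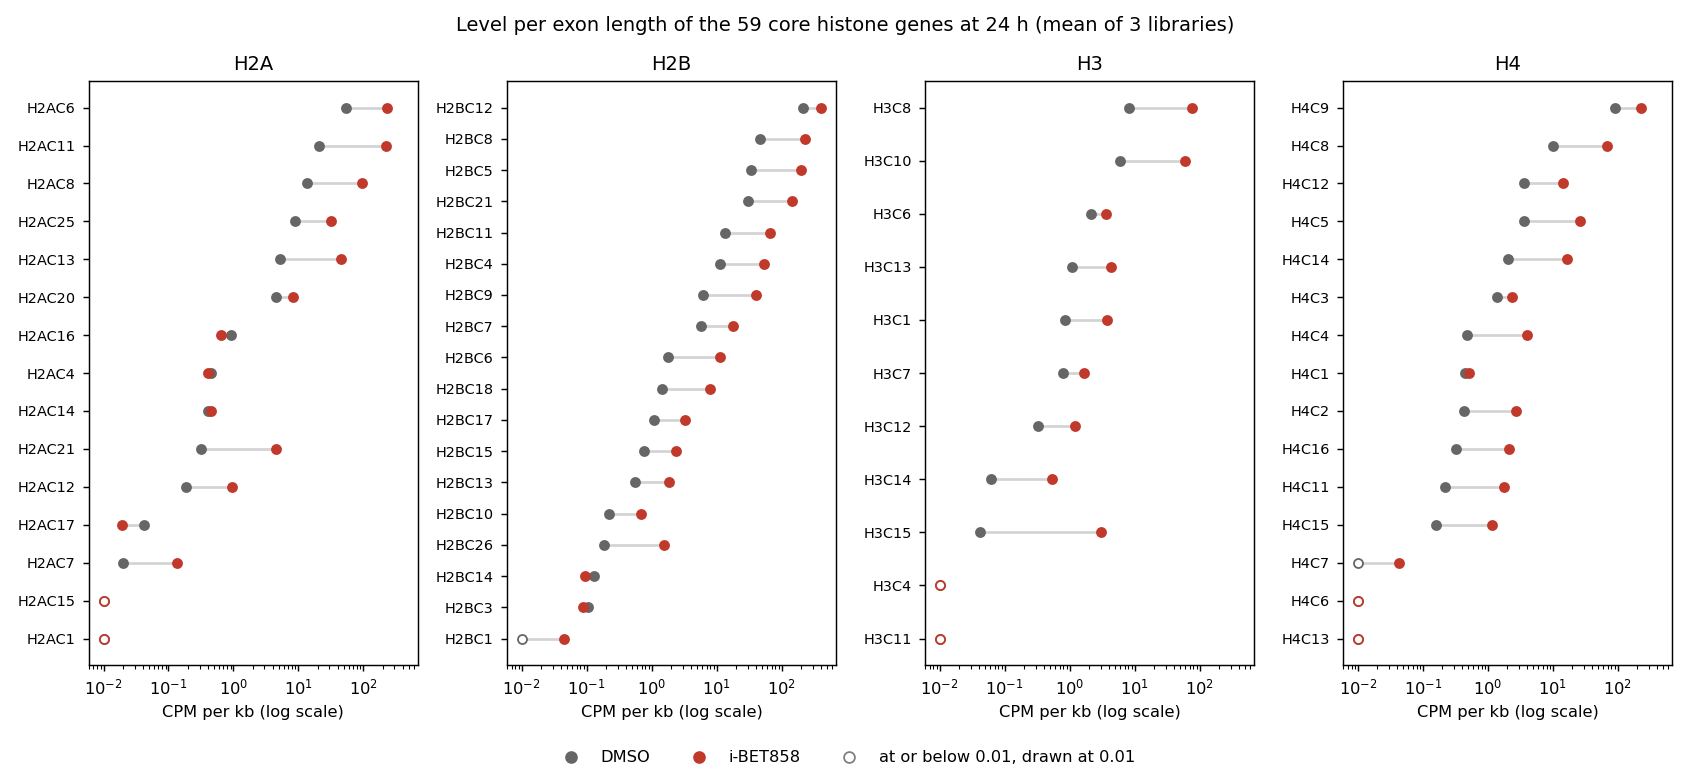
Mean level of each of the 59 genes at 24 h in DMSO and in i-BET858, in CPM per kb of annotated exon on a log axis; genes are grouped by type. The genes without a count are drawn open at 0.01, and most genes above 1 CPM per kb lie further right in i-BET858.

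The H2A members were led by H2AC6 (ENSG00000180573.9, chr6:26124145-26139116, plus strand), whose annotated transcripts include 1 with 2 exons and which is known to give a tailed mRNA. Its level was 117, 84.3 and 68.4 CPM in DMSO, 256.3, 198 and 154 CPM in i-BET858 and 217, 172 and 128 CPM in i-BET151 at 4 h, and 86.1, 85.8 and 102 CPM, 389, 401 and 357 CPM and 321, 312 and 254 CPM at 24 h. Treated and DMSO libraries did not overlap, while the DMSO libraries of the 2 times did. The log2 fold change with i-BET858 was 1.17 ± 0.25 (SE; adjusted p = 0.00389) at 4 h and 2.03 ± 0.12 (adjusted p = 1.13e-06) at 24 h. With i-BET151 it was 0.93 ± 0.25 at 4 h (adjusted p = 0.024, under 2-fold and so not called) and 1.67 ± 0.12 at 24 h (adjusted p = 6.42e-06). Without replicate 1 of i-BET858 the change at 4 h was 0.97 (adjusted p = 0.0189), under 2-fold. An unnamed gene (ENSG00000291336) overlaps the exons of H2AC6 on the same strand.

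H2AC11 (ENSG00000196787.3, chr6:27133043-27133535, plus strand), a short intronless gene, was lower in DMSO than H2AC6. It stood at 11.1, 9.71 and 6.61 CPM in DMSO, 50.99, 54.2 and 32.8 CPM in i-BET858 and 39.3, 33.4 and 26.96 CPM in i-BET151 at 4 h. At 24 h it stood at 11.6, 10.7 and 8.12 CPM, 116, 105 and 112 CPM and 84.2, 93.2 and 63.9 CPM. All treated libraries were above all DMSO libraries, and all 3 i-BET858 libraries at 24 h were above all 3 at 4 h. The log2 fold change was 2.33 ± 0.25 and 1.85 ± 0.24 at 4 h and 3.41 ± 0.17 and 2.96 ± 0.16 at 24 h with i-BET858 and i-BET151, each called (adjusted p between 5.66e-07 and 4.98e-04). H2AC8 (ENSG00000277075.2, chr6:26216921-26217437, plus strand) followed the same course. It was at 7.57, 7.71 and 5.41 CPM in DMSO, 50.9, 50.4 and 47.7 CPM in i-BET858 and 34.1, 34.5 and 24.9 CPM in i-BET151 at 24 h, with log2 fold changes of 2.81 ± 0.17 and 2.15 ± 0.17, called in all 4 comparisons. With i-BET151 at 4 h (1.20) that call was lost in 5 of the fits without 1 library (adjusted p = 0.053 to 0.111).

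H2AC25 (ENSG00000181218.5, chr1:228434777-228457873, minus strand) had its highest treated values at 4 h. At that time it was at 18.9, 15.1 and 9.96 CPM in DMSO, 93.3, 99.6 and 46.9 CPM in i-BET858 and 75.7, 68.4 and 41.1 CPM in i-BET151, and at 24 h at 16.3, 13.9 and 18.6 CPM, 60.5, 61.2 and 54.9 CPM and 57.7, 49.5 and 35.7 CPM. Treated and DMSO libraries did not overlap, and the i-BET858 libraries of replicates 1 and 2 were higher at 4 h than at 24 h. The log2 fold changes were 2.45 ± 0.33 and 2.07 ± 0.33 at 4 h and 1.81 ± 0.18 and 1.52 ± 0.17 at 24 h, all called. H2AC21 and H2AC20, the other H2A genes outside chromosome 6, were low. H2AC21, tested only through its treated libraries, lay at 0 to 0.363 CPM in the 6 DMSO libraries and at 0.281 to 5.33 CPM in the treated ones, with log2 fold changes of 3.68, 2.72, 3.75 and 2.63 that were called; with i-BET151 its adjusted p rose to between 0.062 and 0.206 when single libraries were left out, 0.052 with total library size at 4 h and 0.0676 in the fit of only the 2 groups at 24 h. BOLA1 lies across H2AC21 on the opposite strand. H2AC20 was not called, at 1.82, 2.56 and 2.20 CPM in DMSO and 3.98, 4.14 and 3.92 CPM in i-BET858 at 24 h (log2 fold change 0.83 ± 0.24, adjusted p = 0.0182).

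Among the H2B members H2BC21 (ENSG00000184678.10, chr1:149884459-149886682, minus strand) had the highest mean CPM in each of the 4 treated groups, with a long annotated transcript, while in DMSO the mean of H2BC12 was higher at both times. It was at 96.1, 90.8 and 59.6 CPM in DMSO, 252, 225 and 152 CPM in i-BET858 and 227, 186 and 126 CPM in i-BET151 at 4 h, and at 80.01, 74.5 and 46.9 CPM, 356, 335 and 264 CPM and 348, 344 and 219 CPM at 24 h. In each group replicate 3 was lowest, and no treated library reached down to the DMSO range. The log2 fold changes were 1.35 ± 0.25 and 1.13 ± 0.25 at 4 h and 2.21 ± 0.23 and 2.15 ± 0.23 at 24 h, all called, the one with i-BET151 at 4 h with an adjusted p of 0.0113. That call was lost without replicate 1 of i-BET151 (0.92, adjusted p = 0.053) and without replicate 3 of DMSO (0.94, under 2-fold).

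H2BC12 (ENSG00000197903.7, chr6:27146361-27146855, minus strand), highest per length, moved least at 24 h of the 5 genes listed as polyadenylated (with H2AC6, H2BC4, H2BC5 and H2BC21). Its DMSO libraries held 126, 69.7 and 69.6 CPM at 4 h and 67.1, 117 and 138 CPM at 24 h, a wide range. In i-BET858 they held 285, 165 and 157 CPM and then 167, 189 and 249.8 CPM, and in i-BET151 161, 139 and 142 CPM and then 209, 157 and 164 CPM. It was called with i-BET858 at 4 h (1.20 ± 0.27, adjusted p = 0.00529), though not without replicate 1 of i-BET858 (0.87, under 2-fold). At 24 h the change was 0.87 ± 0.25 (adjusted p = 0.0157), under 2-fold, and with i-BET151 0.73 ± 0.26 (adjusted p = 0.0876) and 0.69 ± 0.25 (adjusted p = 0.0515). Of its 100-base stretches, 22.5% also occur in another gene.

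H2BC5 (ENSG00000158373.8, chr6:26158122-26171349, plus strand) rose the most of those 5 with i-BET858. Its libraries held 47.4, 31.7 and 25.5 CPM in DMSO, 138, 178 and 141 CPM in i-BET858 and 110.3, 103 and 90.7 CPM in i-BET151 at 4 h, and 34.1, 28.7 and 24.2 CPM, 203, 156 and 148.5 CPM and 111, 127 and 80.4 CPM at 24 h. No group overlapped DMSO, and the log2 fold changes were 2.13 ± 0.21 and 1.53 ± 0.21, then 2.50 ± 0.19 and 1.85 ± 0.19, all called. H2BC4 (ENSG00000180596.7, chr6:26086317-26123926, minus strand), the head-to-head partner of H2AC6, went from 28.6, 32.1 and 36.6 CPM in DMSO to 149.2, 148.6 and 171 CPM in i-BET858 and 114, 114 and 134 CPM in i-BET151 at 24 h. Its log2 fold changes at 24 h were 2.23 ± 0.13 and 1.87 ± 0.13, against 1.18 ± 0.25 and 1.01 ± 0.25 at 4 h; the last lost its call, with values of 0.82 to 0.94, without replicate 2 or 3 of DMSO or replicate 1 of i-BET151, and was under 2-fold with replicates 1 and 2 alone (0.86) and with total library size (0.95). HFE and ENSG00000291336 lie across H2BC4 on the opposite strand, and whether the counting used strand is not given in the sources used here.

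The other H2B genes of the naming rule were called higher in all 4 comparisons. H2BC11, the partner of H2AC11, was at 13.2, 13.9 and 15.6 CPM in DMSO, 59.1, 60.7 and 86.2 CPM in i-BET858 and 47.1, 43.3 and 53.04 CPM in i-BET151 at 24 h (log2 fold changes 2.23 ± 0.17 and 1.72 ± 0.16); at 4 h with i-BET151 (1.01) its call was lost in 2 fits without 1 library, and the value was also under 2-fold with replicates 1 and 2 alone (0.97), with total library size (0.95) and, barely, with no filter on low counts. H2BC8 was at 26.6, 21.4 and 21.1 CPM in DMSO, 136, 124 and 77.6 CPM in i-BET858 and 98.6, 105 and 61.04 CPM in i-BET151 at 24 h (log2 fold changes 2.25 ± 0.24 and 1.91 ± 0.24). On chromosome 1, H2BC18 changed by 2.60 ± 0.30 and 2.08 ± 0.29 at 4 h and by 2.39 ± 0.33 and 1.90 ± 0.33 at 24 h, from 2.04 to 3.99 CPM in DMSO; 34.7% of its stretches occur in other genes, and FCGR1A lies across it on the opposite strand. H2BC26 changed by 2.60 ± 0.56 and 2.32 ± 0.56, then by 3.02 ± 0.36 and 2.76 ± 0.36, from 0.414 to 1.24 CPM. The calls of H2BC8 and H2BC26 with i-BET151 at 4 h were lost with single libraries left out (H2BC8 adjusted p = 0.0502 without replicate 1 of i-BET151, H2BC26 0.0538 to 0.0727 in 4 such fits).

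Among the H3 members, H3C8 (ENSG00000273983.1, chr6:26270918-26271413, minus strand) and H3C10 (ENSG00000278828.1, chr6:27810051-27811300, plus strand) held most of the counts. H3C8 was at 4.79, 2.91 and 2.79 CPM in DMSO, 10.5, 11.02 and 7.21 CPM in i-BET858 and 8.82, 7.42 and 6.18 CPM in i-BET151 at 4 h. At 24 h it was at 4.24, 4.21 and 3.85 CPM, 37.8, 39.6 and 37.3 CPM and 23.6, 24.3 and 20.2 CPM. The 3 groups at 24 h were each tight and apart from each other, with i-BET858 above i-BET151 and both above DMSO. The log2 fold changes were 1.45 ± 0.28 (adjusted p = 0.00202) and 1.09 ± 0.27 (adjusted p = 0.0194) at 4 h, and 3.18 ± 0.13 (adjusted p = 2.11e-07) and 2.45 ± 0.12 (adjusted p = 1.46e-06) at 24 h. With i-BET151 at 4 h the adjusted p was 0.0563 to 0.0852 when replicate 2 or 3 of DMSO or replicate 1 or 2 of i-BET151 was left out.

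H3C10, whose annotated exon is longer than 1000 bases, was at 8.90, 6.85 and 7.18 CPM in DMSO, 43.7, 42.1 and 27.1 CPM in i-BET858 and 28.99, 24.5 and 17.4 CPM in i-BET151 at 4 h. After 24 h it was at 9.30, 8.38 and 4.74 CPM, 77.8, 75.6 and 72.4 CPM and 63.2, 61.8 and 31.3 CPM. Treated libraries stood clear of DMSO, and the log2 fold changes were 2.30 ± 0.24, 1.62 ± 0.24, 3.29 ± 0.29 and 2.78 ± 0.29, in the order i-BET858 and i-BET151 at 4 h, then at 24 h, all called. H3C6, in contrast, was called in none of the 4 comparisons. It had no stem-loop match and stood at 7.18, 6.09 and 3.82 CPM in DMSO and 11.4, 10.7 and 7.48 CPM in i-BET858 at 24 h (0.75 ± 0.32, adjusted p = 0.0794).

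Of the 3 H3 genes of chromosome 1, H3C14 and H3C15 were close to the floor in DMSO, and H3C13 was at 0.236 to 0.955 CPM at 24 h. H3C15 (ENSG00000203852.3, chr1:149852608-149853125, plus strand) had 0, 0.0337 and 0.0318 CPM in DMSO, 1.46, 1.78 and 1.49 CPM in i-BET858 and 1.05, 1.34 and 1.57 CPM in i-BET151 at 24 h, and was called in all 4 comparisons. It entered the test at both times only through its treated libraries, and its call with i-BET151 at 4 h was lost in 7 fits without 1 library (adjusted p = 0.0572 to 0.118) and in the fit of only those 2 groups (0.0547). The 3 DMSO libraries at 24 h held 2 counts in all, against 182 in i-BET858, a ratio of 73.8 (95% exact binomial interval 20.1 to 614, for counting error only) and 141 in i-BET151, a ratio of 61.3 (95% exact binomial interval 16.7 to 511, for counting error only). All of its 100-base stretches also occur in other genes, as do 99.1% of those of H3C14 and 46.2% of those of H3C13. A read within such a stretch matches more than 1 gene, so the levels and ratios of the 3 are uncertain. H3C13 went from 0.333, 0.236 and 0.955 CPM to 2.79, 1.11 and 2.22 CPM in i-BET858 (1.95 ± 0.58, adjusted p = 0.0188), a call lost in 3 fits without 1 library (adjusted p = 0.0676 to 0.0805); it too was tested through its treated libraries only. H3C14 went from 0.0303, 0.0673 and 0 CPM to 0.196, 0.194 and 0.439 CPM (2.93 ± 1.02, adjusted p = 0.0387), again tested only that way. That call was lost in 8 of the 9 fits without 1 library (adjusted p = 0.0561 to 0.12), with replicate number as a block (0.0516), with no filter on low counts (0.114) and in the fit of all 18 libraries (0.0541).

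Among the H4 members, H4C9 (ENSG00000276180.1, chr6:27139282-27139678, plus strand) was highest of the type per length in DMSO, and H4C8 (ENSG00000158406.4, chr6:26277609-26285638, minus strand) had the highest treated CPM of the type at 24 h. H4C8 was at 24.1, 24.2 and 18.8 CPM in DMSO, 80.00, 68.6 and 43.8 CPM in i-BET858 and 57.00, 53.7 and 30.2 CPM in i-BET151 at 4 h. At 24 h it was at 23.5, 22.2 and 18.97 CPM, 160.5, 156 and 122 CPM and 125, 123 and 82.4 CPM. DMSO libraries of the 2 times overlapped, and every treated library was above them. An unnamed gene lies across H4C8 on the opposite strand. Its log2 fold changes were 1.52 ± 0.26 (adjusted p = 0.00115) and 1.07 ± 0.26 (adjusted p = 0.0173) at 4 h, and 2.72 ± 0.18 (adjusted p = 1.60e-06) and 2.33 ± 0.17 (adjusted p = 7.68e-06) at 24 h. The call with i-BET151 at 4 h was lost in 4 fits that left out replicate 1 or 3 of DMSO or replicate 1 or 2 of i-BET151 (adjusted p = 0.0534 to 0.0772).

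H4C9 was at 37.2, 33.9 and 29.5 CPM in DMSO, 111, 83.8 and 71.9 CPM in i-BET858 and 77.9, 66.5 and 59.9 CPM in i-BET151 at 4 h, and at 33.2, 34.5 and 41.9 CPM, 82.1, 93.7 and 92.7 CPM and 85.4, 78.2 and 74.9 CPM at 24 h. The treated groups covered much the same range at both times. Its log2 fold changes of 1.41 ± 0.18 and 1.02 ± 0.17 at 4 h and 1.25 ± 0.12 and 1.10 ± 0.12 at 24 h were all called, the second only just above 2-fold (0.91 and 0.93 without replicate 1 of i-BET151 and without replicate 3 of DMSO, and 0.96 with total library size).

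H4C5 (ENSG00000276966.2, chr6:26204610-26205021, plus strand) and H4C4 (ENSG00000277157.1, chr6:26188710-26189112, minus strand) started low and had the largest called rises of the chromosome 6 genes at 4 h. H4C5 was at 1.53, 1.70 and 1.57 CPM in DMSO, 28.6, 25.9 and 8.40 CPM in i-BET858 and 18.5, 16.4 and 9.41 CPM in i-BET151 at 4 h. At 24 h it was at 1.27, 2.22 and 0.891 CPM, 12.8, 13.8 and 5.53 CPM and 9.27, 9.43 and 3.32 CPM. Replicate 3 was the lowest treated library in each group and was still above all DMSO libraries. The log2 fold changes were 3.71 ± 0.44 and 3.19 ± 0.43 at 4 h and 2.84 ± 0.50 and 2.31 ± 0.49 at 24 h, all called. H4C4 had 0.0614, 0.180 and 0 CPM in DMSO and 3.54, 3.48 and 0.142 CPM in i-BET858 at 4 h, so its i-BET858 library of replicate 3 lay inside the DMSO range. It reached the filter at both times only through its treated libraries, so the size of its rise is no support. It was called with i-BET858 at both times and with i-BET151 at 4 h, and those calls were lost in 4 and 5 of the fits without 1 library for i-BET151 at 4 h and i-BET858 at 24 h (adjusted p up to 0.107).

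The remaining named H4 genes include the member of chromosome 12. H4C16 (ENSG00000197837.3, chr12:14767999-14771131, minus strand) was at 0.952, 0.773 and 1.85 CPM in DMSO and 5.18, 4.76 and 7.50 CPM in i-BET858 at 4 h, and at 0.939, 0.640 and 0.764 CPM and 4.74, 2.42 and 8.65 CPM at 24 h. It was called in all 4 comparisons, with log2 fold changes of 2.30, 1.87, 2.71 and 2.53. H4C14 and H4C15 have the same exon sequence in full, so reads of either cannot be assigned. H4C14 was uneven between replicates, at 9.58, 0.981 and 7.89 CPM in i-BET151 at 4 h and 6.68, 53.7 and 32.6 CPM in i-BET858 at 24 h, and H4C15 lay between 0.0606 and 3.87 CPM in all 18 libraries. H4C14 was called with i-BET858 at 4 and 24 h, and those calls were lost in 2 and 5 fits without 1 library (adjusted p up to 0.134). H4C15, tested only through its treated libraries, was called in all 4 comparisons. With i-BET858 and i-BET151 its calls were lost in 7 and 6 such fits at 4 h and in 1 and 6 at 24 h (adjusted p up to 0.161). H4C12, with 91.3% of its stretches found elsewhere, was called with i-BET858 at 4 h (1.30 ± 0.44) and with both compounds at 24 h (1.94 ± 0.29 and 1.53 ± 0.29). The call at 4 h was lost in 6 fits without 1 library (0.68 to 1.37, adjusted p = 0.0587 to 0.267), with total library size (0.0717), with no filter (0.0748) and in the fit of only the 2 groups (0.0536). Without the 11 members that share 50% or more of their stretches with another gene, 26, 21, 28 and 23 members were called higher, in the order used above.

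**Figure D4:**
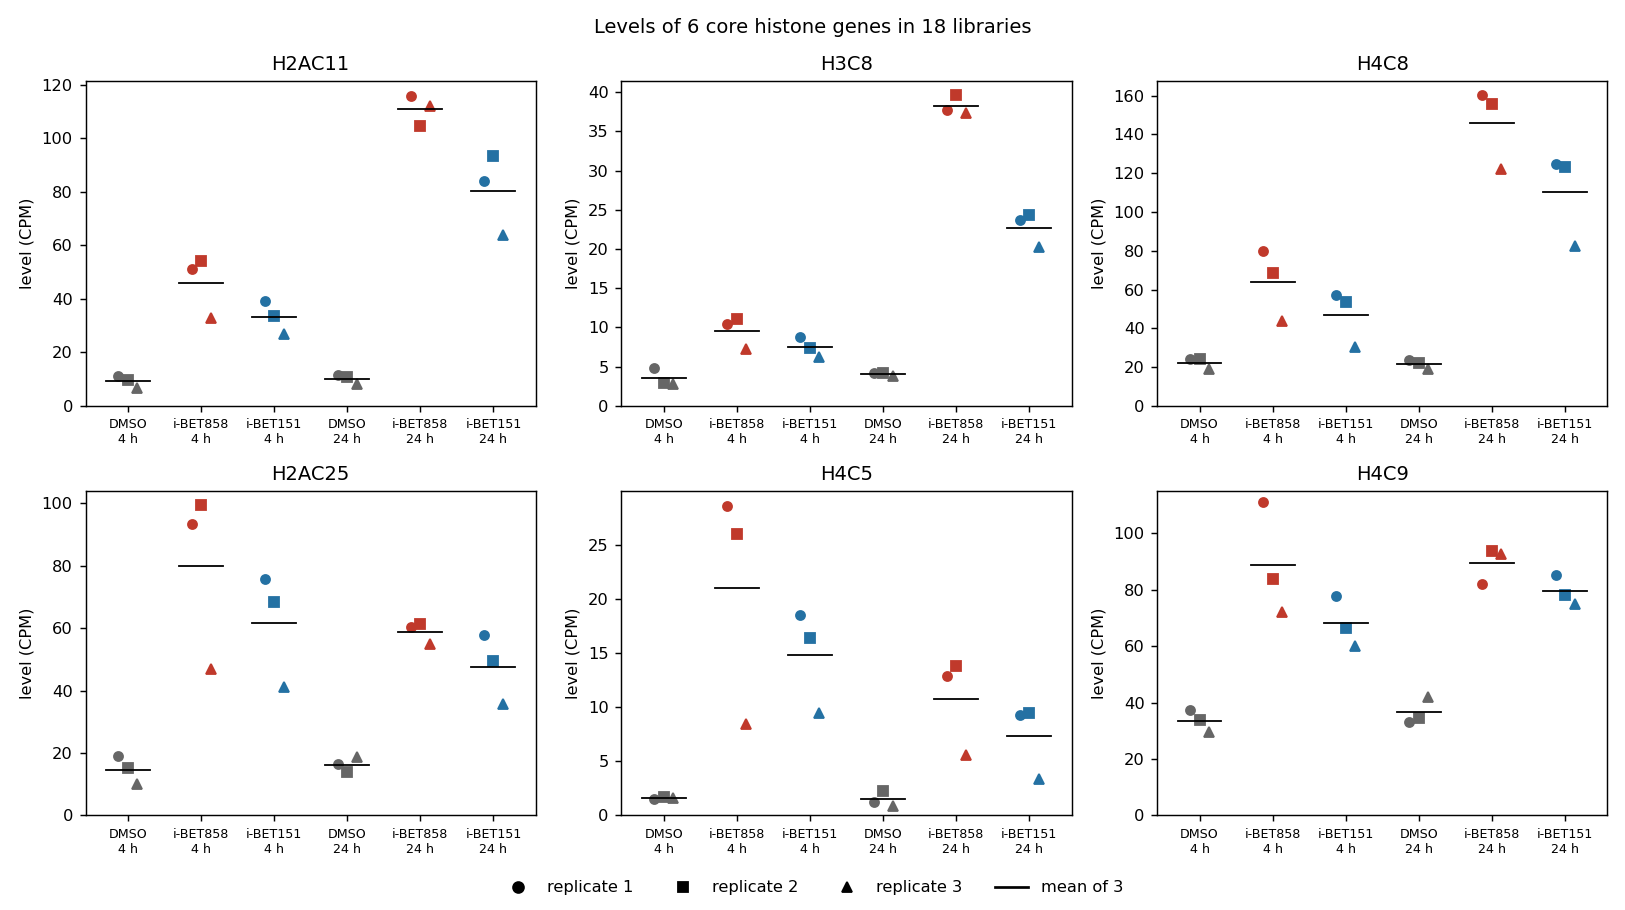
Levels (CPM, linear axis from 0) of 6 members in each of the 18 libraries, with a marker shape for each replicate and a line at the mean of 3. H2AC11, H3C8 and H4C8 are higher at 24 h than at 4 h in both compounds, H2AC25 and H4C5 have higher means at 4 h, and H4C9 has similar means at both times.

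The change of each compound's effect from 4 to 24 h was tested for each member in a fit of all 18 libraries, with 47 members tested. For i-BET858 the effect grew for 5 members that were called, where 6.87% of all genes were called higher. The changes in log2 fold change were 1.77 ± 0.29 for H3C8 (adjusted p = 2.40e-04), 1.24 ± 0.33 for H4C8 (adjusted p = 0.00962), 1.22 ± 0.39 for H2AC8 (adjusted p = 0.0275), 1.12 ± 0.30 for H2AC11 (adjusted p = 0.01) and 1.09 ± 0.29 for H2BC4 (adjusted p = 0.00898). H2BC11 with 0.94 ± 0.25 (adjusted p = 0.00996) and H2AC6 with 0.89 ± 0.29 (adjusted p = 0.0287) passed the adjusted p but not the 2-fold limit; by adjusted p alone 14.6% of all genes were higher, so 7 of 47 members is a share near that of all genes. For i-BET151 the effect grew for 3 members, where 2.50% of all genes were called higher. These were H3C8 with 1.37 ± 0.29 (adjusted p = 0.00479), H4C8 with 1.28 ± 0.33 (adjusted p = 0.0161) and H2AC11 with 1.13 ± 0.30 (adjusted p = 0.0194). With replicate number as a block 5 members were called for i-BET151. Without single libraries the calls of the i-BET858 effect were lost in 5 fits for H2AC8 (0.87 to 1.21, adjusted p = 0.0414 to 0.0853), 3 for H2AC11 (0.90 to 0.98, under 2-fold) and 2 for H2BC4 (0.83 to 0.91; also just under 2-fold with at least 10 counts asked in every library), and that of the i-BET151 effect in 4 fits for H2AC11 (adjusted p = 0.0505 to 0.0619). With replicates 1 and 2 alone H2AC11 (0.95) and H2AC8 (0.90) were under 2-fold for i-BET858.

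No member was called for a smaller effect at 24 h, where 8.21% (i-BET858) and 4.20% (i-BET151) of all genes were. The values for H4C5 were -0.83 ± 0.68 and -0.87 ± 0.69 (adjusted p = 0.414 and 0.46) and for H2AC25 -0.59 ± 0.39 and -0.52 ± 0.39 (adjusted p = 0.292 and 0.427), so the higher means at 4 h were not distinguishable from an equal effect here. With replicates 1 and 2 alone (45 members tested), 2 members were called for a smaller effect of i-BET858 and 1 for i-BET151, beside 5 for a larger effect of each. The share of all genes called in that fit was not counted. Leaving out single libraries changed the count for i-BET858 to 2 (without replicate 1 of DMSO at 4 h), 3 (without replicate 3 of i-BET858 at 4 h) and 8 (without replicate 3 of DMSO at 4 h). For i-BET151 it became 6 without replicate 1 of i-BET151 at 4 h, and 5 without replicate 3 of DMSO at 4 h or of i-BET151 at 24 h. In DMSO alone no member was called different between 24 and 4 h by edgeR or DESeq2, nor at an unadjusted p under 0.05, where 0.00551% of all genes were called in either direction, and the median log2 difference was 0.11; with the replicate block 1 member was called.

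**Figure D5:**
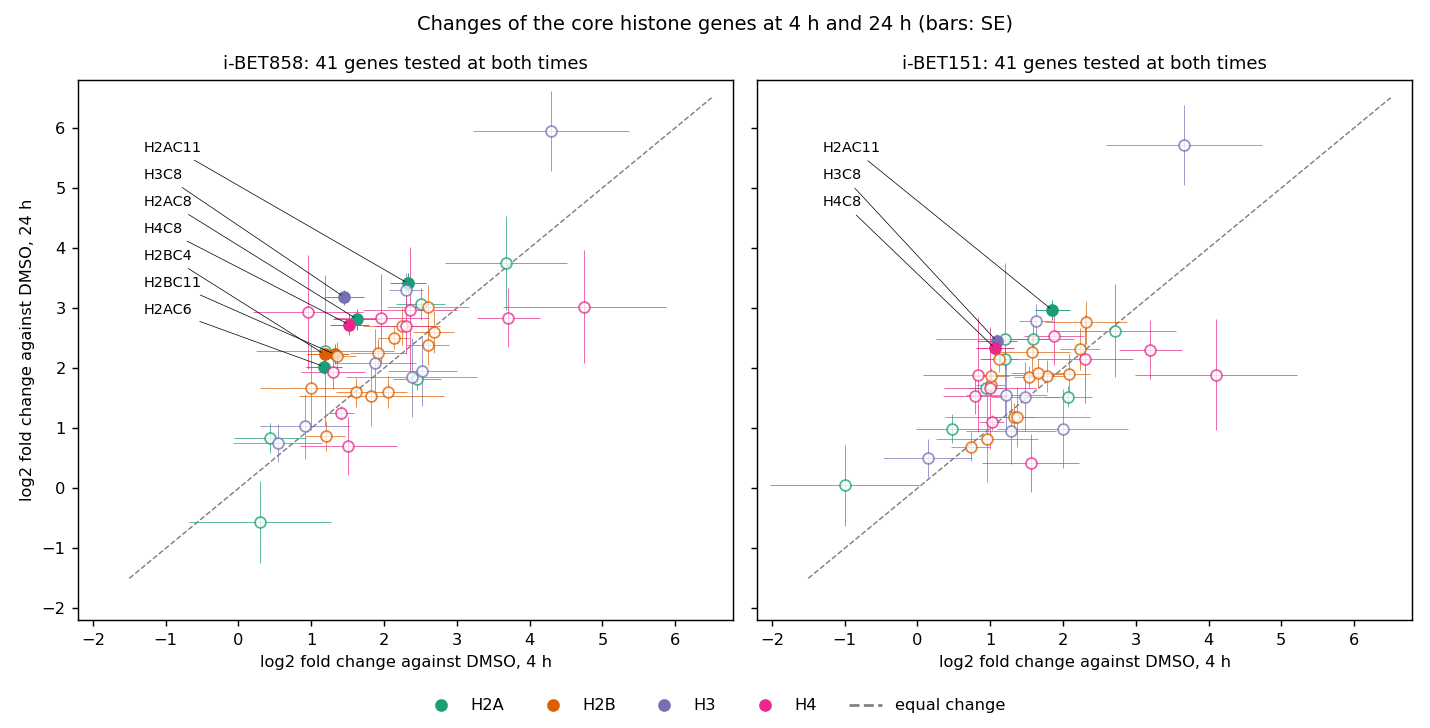
Log2 fold change against DMSO at 24 h plotted over that at 4 h for the 41 members tested at both times, with bars of 1 SE, for i-BET858 (left) and i-BET151 (right). Filled, labelled points are members whose effect changed between the times (adjusted p under 0.05), and all of them lie above the line of equal change.

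The compounds were compared with each other at the same dose and the same times. No member was called different at 4 h (42 tested) or at 24 h (45 tested), where 0.0931% and 0.0233% of all genes were called higher and 0.116% and 0.0408% lower in i-BET858; DESeq2 called none either. At an unadjusted p under 0.05, 5 members were higher in i-BET858 at 4 h and 9 at 24 h, and none was lower. The share of all genes at that p was not counted, so these counts are not read as a result about the members. The point estimates were above 0 for 37 of 42 and 39 of 45 members, with medians of 0.43 and 0.40, where 52.8% and 48.6% of all genes were above 0. H3C8 alone passed the adjusted p at 24 h, as 0.0933% of all genes did in that direction, with a difference of 0.73 ± 0.11 (95% interval 0.48 to 0.98, adjusted p = 0.0485), and its i-BET858 libraries were above its i-BET151 libraries in 9 of 9 pairs. Other intervals at 24 h were 0.31 to 1.00 for H2AC8 (adjusted p = 0.13), 0.25 to 1.06 for H2BC5 (adjusted p = 0.187), 0.12 to 0.78 for H2AC11 (adjusted p = 0.271), -0.11 to 0.42 for H4C9 (adjusted p = 0.728) and -0.42 to 0.53 for H2BC21 (adjusted p = 0.977). For 18 of 45 members at 24 h and 9 of 42 at 4 h the interval lay wholly within 2-fold in either direction, so for the rest a 2-fold difference is within the error. These intervals come from the fit without a replicate block, and with that block no member was called either. The members' sum in replicates 1, 2 and 3 at 4 h was 1765, 1547 and 1096 CPM in i-BET858. In i-BET151 it was 1353, 1134 and 904 CPM. At 24 h the sums were 2244, 2212 and 2068 CPM against 1863, 1852 and 1396 CPM. The sum was the higher in i-BET858 in each same-numbered pair, which was not tested.

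Whether a member's annotated transcript is of the long kind was set against the response. In GENCODE 44, 17 members have a spliced coding transcript or more than 1000 exon bases, and 42 are short and have a single exon. Of the long or spliced members tested, 15 of 16 were called higher with i-BET858 at each time, and 13 and 14 with i-BET151. Of the short members tested, 16 of 26 and 20 of 29 were called higher with i-BET858, and i-BET151 raised 11 and 14. Limited to members that reached the filter in DMSO alone, the counts were 14 of 15 and 14 of 15 against 11 of 13 and 10 of 13 with i-BET858, and the medians of log2 fold change 2.13 and 2.39 against 1.82 and 2.25. With i-BET151 the counts were 12 of 15 and 13 of 15 for the long or spliced against 8 of 13 and 10 of 13 for the short members. Only the medians had the other order there, by little, at 1.33 and 1.87 against 1.37 and 1.91. The sum of the long or spliced members was 302 ± 16.7 CPM in DMSO and 1484 ± 99.7 CPM in i-BET858 at 24 h, and that of the short members 206 ± 35.1 CPM and 690.3 ± 6.25 CPM. The difference between the classes was not tested. The 5 genes listed as known to give tailed mRNA (H2AC6, H2BC4, H2BC5, H2BC12 and H2BC21) held 64.4% of the members' summed CPM in DMSO and 56.5% in i-BET858 at 24 h, and the short members outside that list went from 98.8 ± 2.07 CPM to 488 ± 36.98 CPM.

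Head-to-head partners could be read together in 7 of the 12 pairs of an H2A with an H2B gene, those in which both were tested. Both partners were called higher in 4 pairs with i-BET858 at 4 h and at 24 h, and in 3 and 4 with i-BET151. In the pair of H2BC4 and H2AC6 the log2 fold changes with i-BET858 at 24 h were 2.23 and 2.03, in that of H2BC8 and H2AC8 2.25 and 2.81, and in that of H2BC11 and H2AC11 2.23 and 3.41. In the pair of H2BC21 and H2AC20, which are 235 bases apart, they were 2.21 (called) and 0.83 (not called). Members with the octamer in their promoter were called higher in 13 of 18 tested and those without it in 21 of 24 with i-BET858 at 24 h; among members at the filter in DMSO alone these were 11 of 13 and 13 of 14, with medians of 2.23 and 2.71. With i-BET151 at 24 h the counts were 12 of 18 and 16 of 24, and 11 of 13 and 12 of 14 at that filter, with medians of 1.90 and 2.08. At 4 h they were 13 of 17 and 18 of 22 with i-BET858 and 10 of 17 and 14 of 22 with i-BET151. Of the 26 promoters with the octamer, 11 belong to H2A and 14 to H2B genes, so the split is largely one of type. That contrast was not tested.

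Other histone genes moved as well. Of 7 linker histone genes tested (H1 proteins bind DNA between nucleosomes), 6 and 5 were called higher with i-BET858 at 4 and 24 h, and 3 and 4 with i-BET151. H1-3 and H1-6 were tested only through their treated libraries. Of the other 5, 4 were called with i-BET858 at each time, and 1 and 4 with i-BET151. Of all genes, i-BET858 had 7.08% and 7.65% called higher at the 2 times, and i-BET151 had 4.12% and 5.59%. With i-BET858 at 24 h, H1-4 changed by 2.59 ± 0.27 and H1-6 by 2.15 ± 0.64 (both called), and H1-3 by 1.36 ± 0.71 and H1-5 by 0.74 ± 0.48 (neither called). Of 9 histone variant genes, most of which are expressed outside S phase too, 3 were called higher with i-BET858 at each time and 1 lower at 24 h, where 14.1% and 18.8% of all genes were called in either direction. H2AJ rose by 2.37 ± 0.12 and H3-3B by 1.36 ± 0.08 at 24 h, and MACROH2A2 fell, with -2.13 ± 0.13; MACROH2A1 was at -0.35 ± 0.09 (adjusted p = 0.00886). With i-BET151, none was called higher at 4 h (5 by adjusted p alone, where 16.2% of all genes passed in either direction) and 1 at 24 h, beside 1 lower.

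Factors that make or destroy histone mRNA were counted in the same way. Of 17 tested, 3 were called higher and 2 lower with i-BET858 at 4 h, 1 higher with i-BET151 at 4 h, and none in either direction at 24 h (9 and 5 by adjusted p alone, where 41.7% and 33.8% of all genes passed). Of all genes, 14.1% and 7.10% were called in either direction at 4 h and 18.8% and 13.7% at 24 h with i-BET858 and i-BET151. The genes called, named after their values were seen, were SLBP (1.20 ± 0.14), CCNE1 (1.22 ± 0.15) and CCNE2 (1.66 ± 0.20), which encode the stem-loop binding protein and the E cyclins that start S phase. By adjusted p alone 4 of the 17 were higher and 4 lower with i-BET858 at 4 h, where 30.8% of all genes passed in either direction. At 24 h with i-BET858 CCNE1 was instead below DMSO, at -0.51 ± 0.10 (adjusted p = 0.00258), and CCNE2 was at -0.39 ± 0.25 (adjusted p = 0.238). Called lower at 4 h with i-BET858 were LSM11, part of U7 snRNP, with -1.48 ± 0.24 and ZNF473, which joins U7 snRNP in processing, with -1.82 ± 0.23. At 24 h with i-BET858 LSM11 was at -0.92 ± 0.17 (adjusted p = 0.00126), UPF1, a helicase that acts in histone mRNA decay, at 0.77 ± 0.10 (adjusted p = 1.10e-04), and SLBP at 0.23 ± 0.10 (adjusted p = 0.0771). NPAT, the activator of histone gene transcription, was at 0.47 ± 0.17 (adjusted p = 0.0416) and SYMPK, a scaffold of the cleavage complex, at -0.56 ± 0.17 (adjusted p = 0.0237).

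S-phase genes were also counted. Of 24 tested, 1 was called higher (SLBP, also among the factors) and 1 lower with i-BET858 at 4 h, none with i-BET151 at either time, and none higher and 2 lower with i-BET858 at 24 h, beside 14.1% and 18.8% of all genes called in either direction with i-BET858 at the 2 times. By adjusted p alone at 24 h, 11 of the 24 were lower and 1 higher with i-BET858, and 7 lower and 1 higher with i-BET151, beside the 41.7% and 33.8% of all genes that passed in either direction. UNG, a DNA repair glycosylase, fell with -1.19 ± 0.13 and MCM5, part of the replicative helicase, with -1.10 ± 0.13 in i-BET858 at 24 h. CHAF1B, a subunit of the chaperone that places new histones on DNA, was at 0.48 ± 0.08 (adjusted p = 8.89e-04). The median log2 fold change of the list was -0.29 and -0.20 at 24 h for i-BET858 and i-BET151, beside 2.25 and 1.87 for the members.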

How the data were processed

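RNA of 18 OVCAR-3 libraries in 6 groups of 3 was enriched for poly-A tails and sequenced. The authors aligned reads to GRCh38 (hg38) with STAR and deposited its raw read counts per gene, as whole numbers with no normalisation; the annotation and the strand setting are not given in the sources used here. Gene symbols and structures were taken from GENCODE 44, in which 58472 of 58825 identifiers (99.4%) matched.

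Counts were tested with edgeR 4.0.16 (R 4.3.3; TMM scaling, filterByExpr, quasi-likelihood F test, Benjamini-Hochberg adjustment over all genes tested). The 9 libraries of a time were fitted together, and changes between times in a fit of all 18. Calls needed an adjusted p under 0.05 together with a change of 2-fold or more; SE is the log2 fold change divided by the square root of F. Displayed CPM use TMM over 18 libraries. The analysis was tested on simulated data. The floor of 3 counts and all intervals of counts cover counting error only.

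The members and lists were chosen with earlier results of these data known. Named members were those outside chromosome 6, the 4 highest per length in each type, the polyadenylated list, the 3 largest called rises and falls in each comparison with DMSO that moved one way in 9 of 9 pairs, up to 5 with the lowest adjusted p in each direct comparison and each change between times, and those without a count. From each other list, the 2 largest and 2 smallest changes with i-BET858 at 24 h were named.

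Deviations from group means correlated with r = 0.307 to 0.638 between same-numbered libraries at 4 h and 0.225 to 0.589 at 24 h. Between libraries of different numbers r was -0.544 to 0.337 (median -0.338) at 4 h and -0.573 to 0.586 (median -0.422) at 24 h. The ranges overlap, so a pairing of the libraries number by number is not shown. Alternatives were DESeq2 1.42.0, other scalings, filters, thresholds and fits, a replicate block, replicates 1 and 2 alone, and each library left out. Sets of genes were described by counts and medians, with no test. No deposited column was left unused.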

Additional observations from a re-analysis of the deposited data

Results flagged for a closer look

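The effect of the compounds differed between 4 and 24 h by the test of the difference itself for 7 members with i-BET858 and for 3 with i-BET151, at an adjusted p under 0.05 in edgeR. With i-BET858 14.6% of all genes were higher by that rule, so 7 of the 47 members tested is a share near the background. For i-BET151 the share of all genes by that rule was not counted. When 2-fold was also asked, 2.50% of all genes were called higher for i-BET151. With i-BET858 the log2 fold change grew by 1.77 for H3C8, 1.24 for H4C8, 1.22 for H2AC8, 1.12 for H2AC11, 1.09 for H2BC4, 0.94 for H2BC11 and 0.89 for H2AC6. With i-BET151 it grew by 1.37 for H3C8, 1.28 for H4C8 and 1.13 for H2AC11. The calls at 2-fold of H2AC8, H2AC11 and H2BC4 were lost without single libraries (in 5, 3 and 2 fits with i-BET858, and in 4 for H2AC11 with i-BET151). What the difference comes from was not tested.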

How the results depend on the processing

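None of the 4 counts of members called against DMSO moved by over 1.5 times under any alternative other than leaving out a library, and no named value changed direction. With each library left out in turn, the counts called with i-BET858 and i-BET151 were 27 to 33 and 11 to 26 at 4 h and 27 to 36 and 26 to 32 at 24 h. The counts whose effect changed from 4 to 24 h were 2 to 8 for i-BET858 and 2 to 6 for i-BET151, and those of the direct and DMSO comparisons were 0 to 0. The direct comparison gave 1 member at 24 h by adjusted p alone, at 1.5-fold or with no filter, and 1 at 4 h with no filter. The change of the i-BET151 effect was called for 5 members by DESeq2, for 5 with no filter, for 5 with the replicate block and for 6 with replicates 1 and 2 alone. The replicate block, which puts replicate number in the fit, called 1 member in DMSO between the times. It lost H3C14 with i-BET858 at 24 h (adjusted p = 0.0516) and lost no other call of a named member. With it the counts called were 32 and 27 at 4 h and 34 and 30 at 24 h for i-BET858 and i-BET151. Scaled by total library size, the summed level in DMSO at 24 h was 539.1 CPM for all members and 71.2 CPM for H4. Of 100 named values, 30 lost their call in at least 1 fit, each of them when a library was left out; the cause was not tested. Depth limits the members near the floor of 3 counts.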
